A study of Mus musculus with 9 samples.

Results

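Collagens, laminins and the ADAMTS proteases are the structural proteins of the extracellular matrix and a group of secreted enzymes that trim or cut it. Their genes were examined in the hypothalamic methylome of male C57/Bl6 mice at postnatal day 6. The members were chosen by name as the autosomal protein-coding genes of the GENCODE vM21 annotation with collagen (Col), laminin alpha, beta or gamma chain (Lama, Lamb, Lamc), ADAMTS or ADAMTS-like (Adamts, Adamtsl) symbols. This gave 77 of 20807 autosomal protein-coding genes, with 42 collagen, 11 laminin, 19 ADAMTS and 5 ADAMTS-like genes. Col4a5 and Col4a6, on chromosome X, were not included. A differentially methylated region (DMR) was assigned to a gene when it overlapped the gene body or the 1000 bp upstream of it, and 68 of the 12949 DMRs in the authors' table met this.

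Pups of the modified maternal separation (MMS) group spent 1.5 h away from the dam on each of postnatal days 4 to 6 and were turned onto their backs repeatedly, and in each litter 2 males were Control and 2 were MMS. DNA of 10 males per group was combined into 3 pools per group, so that each library held the whole hypothalamus of several animals, and no value belongs to a single animal. The series had 9 libraries, of which 6 were methylated DNA immunoprecipitation (meDIP) libraries, 2 were inputs and 1 was an IgG control. In meDIP an antibody against methylated cytosine pulls down DNA fragments, and the reads over a region depend on its methylation and on its number of CpG sites, the places where a C is followed by a G on the same strand and where mammalian DNA is mainly methylated. The table gives the authors' log2 mean of normalised reads in each group and no value for any pool, and it lists only regions with a false discovery rate (FDR) of 0.05 or lower. For this reason no spread between pools and no test could be given here, every value below is an authors' group mean or the difference between the group means (MMS minus Control, log2), and the 3 pools per group limit its precision. The table gives no reads per library behind its values. The tissue label was not checked against cell type markers, because the values of this series come from DNA alone, and a change in cell makeup cannot be told apart from a change within cells.

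Collagens are built from chains wound into a triple helix, and their classes differ in whether they form fibrils, sheet-like networks, microfibrils or membrane-anchored proteins. Laminins are cross-shaped trimers of an alpha, a beta and a gamma chain that organise the basement membrane around vessels, pia and developing nerve tissue, where integrins and dystroglycan bind them. ADAMTS enzymes are secreted metalloproteases, among them the procollagen N-propeptidases that trim fibrillar collagens and the proteoglycanases that cut lecticans such as aggrecan and versican, and ADAMTS-like proteins resemble them but lack the protease domain.

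The reference sequence under the DMRs shows how unlike each other the methylated stretches of these genes were. For each family (collagen, laminin, ADAMTS with ADAMTS-like) the 200 bp in the middle of the DMR with the most CpG per 100 bp are given, followed by the same for the largest difference in each direction among DMRs with the lower group above its lowest value. All are the GRCm38 plus strand, 5′ to 3′, and capitals mark each CpG.
Col19a1 (chr1:24453501-24453700): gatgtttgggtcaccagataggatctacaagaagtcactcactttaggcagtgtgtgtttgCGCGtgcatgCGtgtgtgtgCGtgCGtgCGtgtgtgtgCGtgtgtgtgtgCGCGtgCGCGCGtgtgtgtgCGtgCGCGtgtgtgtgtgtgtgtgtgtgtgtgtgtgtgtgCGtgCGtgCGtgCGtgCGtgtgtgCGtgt
Lamb2 (chr9:108481388-108481587): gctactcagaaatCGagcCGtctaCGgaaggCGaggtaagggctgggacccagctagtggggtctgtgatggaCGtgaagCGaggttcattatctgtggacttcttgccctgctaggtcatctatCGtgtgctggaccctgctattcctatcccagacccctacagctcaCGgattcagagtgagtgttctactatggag
Adamts17 (chr7:67080577-67080776): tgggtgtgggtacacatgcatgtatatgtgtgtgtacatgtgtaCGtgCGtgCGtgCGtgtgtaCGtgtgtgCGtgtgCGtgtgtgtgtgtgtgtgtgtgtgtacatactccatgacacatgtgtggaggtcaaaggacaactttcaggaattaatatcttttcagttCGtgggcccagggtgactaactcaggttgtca
Col6a3 (chr1:90818827-90819026): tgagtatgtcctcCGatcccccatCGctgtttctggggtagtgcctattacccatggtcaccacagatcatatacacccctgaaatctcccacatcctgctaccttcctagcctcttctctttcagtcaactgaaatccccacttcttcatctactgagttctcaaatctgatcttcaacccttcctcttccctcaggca
Col13a1 (chr10:61865146-61865345): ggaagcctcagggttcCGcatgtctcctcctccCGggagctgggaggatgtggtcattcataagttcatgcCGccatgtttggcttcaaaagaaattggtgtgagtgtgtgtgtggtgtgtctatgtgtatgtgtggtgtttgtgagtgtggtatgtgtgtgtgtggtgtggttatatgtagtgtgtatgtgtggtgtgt

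Most of the Col19a1 stretch and part of the Adamts17 stretch were alternating TG runs broken by CG steps, and the 200 bp held 21 CpG in Col19a1 and 8 in Adamts17. The Lamb2 stretch lay over exons 6 and 7 of the gene and also held 8 CpG, spread through unique sequence. In the stretches with the largest differences the middle 200 bp held 2 CpG in Col6a3 and 3 in Col13a1. The whole DMRs held 13 CpG in 1279 bp (Col6a3) and 4 CpG in 317 bp (Col13a1). A further 3 stretches were chosen after their values were seen, because they are the only DMR with the base composition of a CpG island (Col25a1), a DMR over coding exons of the main fibrillar collagen (Col1a1), and the CpG-densest DMR of the gene with the most DMRs (Col23a1).
Col25a1 (chr3:130579688-130579887): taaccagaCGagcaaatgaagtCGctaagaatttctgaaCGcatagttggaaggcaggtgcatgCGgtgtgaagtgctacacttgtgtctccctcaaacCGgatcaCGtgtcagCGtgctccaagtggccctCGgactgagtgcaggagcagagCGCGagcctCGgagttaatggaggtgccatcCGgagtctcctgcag
Col1a1 (chr11:94943227-94943426): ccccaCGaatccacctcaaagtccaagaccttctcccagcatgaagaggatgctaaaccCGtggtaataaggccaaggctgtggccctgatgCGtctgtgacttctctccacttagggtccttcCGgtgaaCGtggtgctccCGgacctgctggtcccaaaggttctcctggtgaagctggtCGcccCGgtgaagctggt
Col23a1 (chr11:51576237-51576436): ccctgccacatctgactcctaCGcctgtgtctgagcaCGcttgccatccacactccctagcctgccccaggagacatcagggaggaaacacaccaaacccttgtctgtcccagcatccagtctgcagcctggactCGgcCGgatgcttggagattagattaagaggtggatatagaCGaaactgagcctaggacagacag

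Of the 77 matrix genes, 38 (49.4%) had at least 1 DMR, against 20.1% of all autosomal protein-coding genes. The matrix genes are long, with a median of 114 kb against 17.6 kb, and long genes held DMRs more often. When the share of all genes was weighted by the lengths of the matrix genes it became 43.7%. Among genes of 100 to 300 kb, 23 of 37 matrix genes (62.2%) had a DMR against 59.7% of all genes, and above 300 kb it was 4 of 5 (80.0%) against 82.3%. The shares lay further apart in the shorter classes. It was 4 of 15 (26.7%) against 13.7% at 10 to 30 kb, and 7 of 17 (41.2%) against 30.7% at 30 to 100 kb, while none of the 3 matrix genes under 10 kb had a DMR (3.76% of all genes). Per megabase, the matrix genes held 6.68 DMRs and all genes 6.37. The count of matrix genes was thus near that of genes of their length, and the families are described below by which genes held DMRs and in which direction. As a rough guide, the share of all genes at the median length is set beside the count of each class, here and below. The genes of a class can span several length classes, and no class was weighted by the length of each gene. The median was 23.3 kb for the proteoglycanases (13.7% of all genes in that length class). It was 45.0 kb for the fibrillar and 75.1 kb for the FACIT collagens (30.7%), and 130 kb for the network and 217 kb for the transmembrane collagens (59.7%). The proteoglycanases, for example, include Adamts9 (171 kb) and Adamts20 (195 kb), in the length class where 59.7% of all genes held a DMR.

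**Figure D1:**
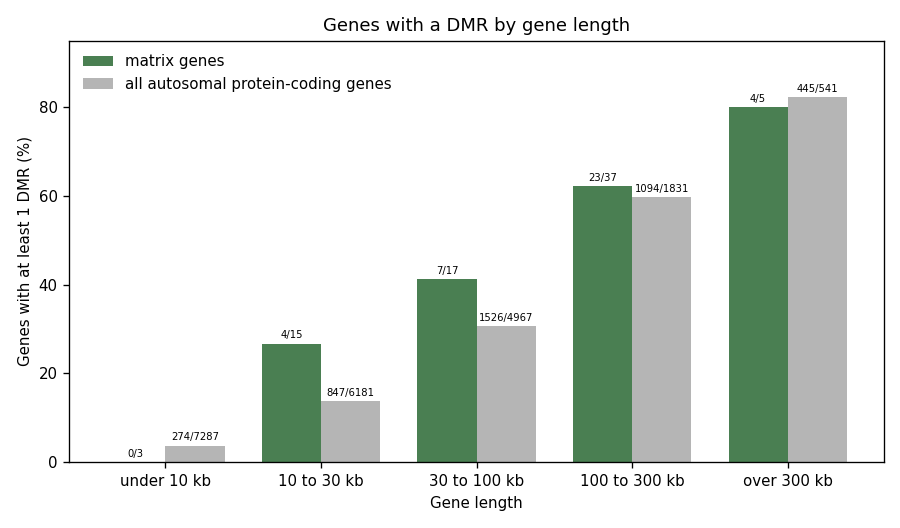
Share of genes with at least 1 DMR (%, vertical axis) in 5 classes of gene length (horizontal axis), for the 77 matrix genes (green) and all autosomal protein-coding genes (grey), with the counts above each bar. Both sets rise with length, and from 100 kb upwards their shares lie within 3 percentage points of each other.

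In total 43 of the 68 DMRs (63.2%) were higher in MMS and 25 had the higher mean in Control, against 62.0% higher in MMS among DMRs of all genes and 62.6% in the whole table. The families differed in this split. Of 40 collagen DMRs, 31 (77.5%) were higher in MMS. Of 11 laminin DMRs, 5 (45.5%) were higher in MMS, and of 17 ADAMTS and ADAMTS-like DMRs it was 7 (41.2%). The difference between the families was not tested, since DMRs of a gene share their pools and are not replicates. The transmembrane collagens held many of the collagen DMRs, but outside this class 17 of 23 (73.9%) were also higher in MMS. Some means lie at the lowest value of the table, which is -0.17 in Control (0.889 normalised reads) and -0.24 in MMS (0.847 reads), and a difference against it depends on where that value lies. With DMRs near it left out (within 0.5), 19 of 28 collagen DMRs (67.9%) were higher in MMS, 3 of 9 laminin DMRs (33.3%) and 3 of 13 ADAMTS and ADAMTS-like DMRs (23.1%), against 45.8% of DMRs in all genes. Among DMRs with a difference of at least 2 in either direction the shares lay closer together. They were 90.3%, 80.0% and 77.8%, against 81.0% in all genes, and most DMRs of each family were then higher in MMS. Only 45 of the 68 DMRs passed this limit and most of these were collagen DMRs, so the other 80.0% and 77.8% rest on few regions. With an FDR under 0.01 the shares were 77.3% of 22 collagen DMRs, 75.0% of only 4 laminin DMRs and 33.3% of 6 ADAMTS and ADAMTS-like DMRs, against 67.8% in all genes.

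**Figure D2:**
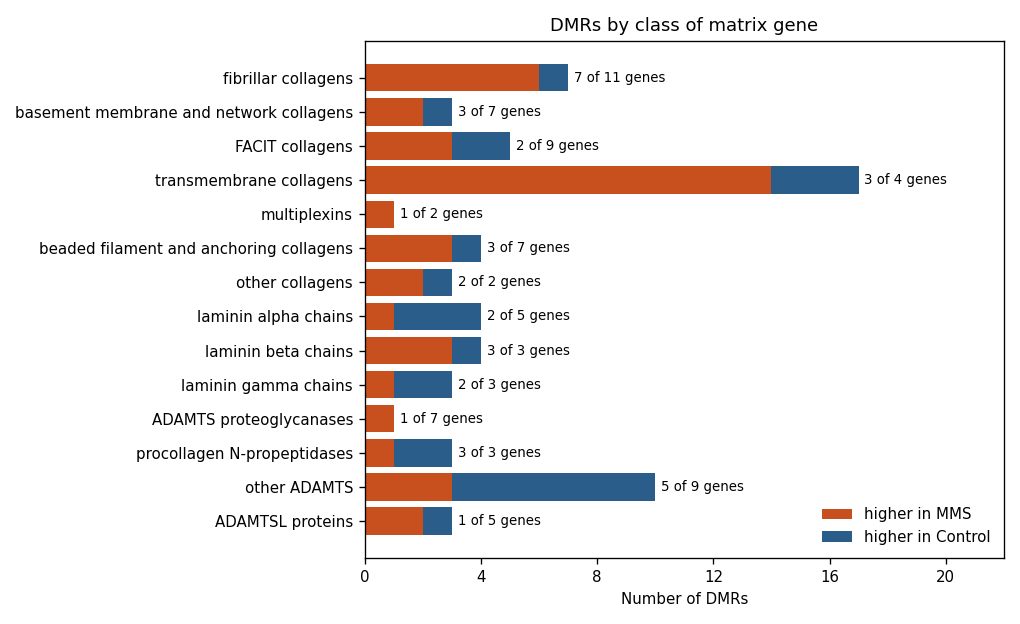
Number of DMRs (horizontal axis) in each class of matrix gene, coloured by the group with the higher mean, with the number of genes holding a DMR beside each bar. The transmembrane collagens hold 17 DMRs, 14 of them higher in MMS, and the other ADAMTS hold 10, of which 7 are higher in Control.

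In DMRs higher in MMS the median difference was 3.09 (range 1.39 to 4.72), against 3.40 over all genes, and the Control mean was at its lowest value in 18 of 43 (41.9%), against 46.1% at it and 50.2% at or within 0.5 of it over all genes. In DMRs higher in Control the median was -1.52 (range -2.94 to -0.93), against -1.69, and the MMS mean was near its lowest value in none of 25 (3.91% in all genes). Regions higher in Control therefore kept reads in both groups, with a median of 5.31 in Control and 3.74 in MMS.

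**Figure D3:**
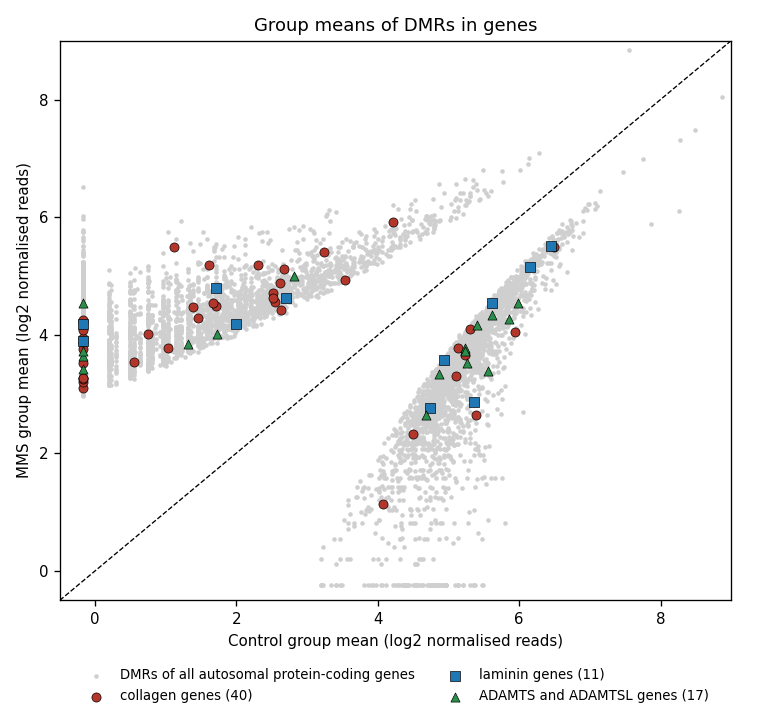
Control group mean (horizontal axis) against MMS group mean (vertical axis), both log2 normalised reads, for each DMR of the collagen (circles), laminin (squares) and ADAMTS or ADAMTS-like genes (triangles) and of all autosomal protein-coding genes (grey); the dashed line marks equal means. Of the matrix DMRs 18 lie at the lowest Control value of -0.17 on the left edge, and none lies at the lowest MMS value.

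The transmembrane collagens, single-pass membrane proteins whose collagenous ectodomains can be shed, were the class with the most DMRs. In all, 3 of the 4 genes held 17 DMRs, or 17.8 per megabase, against 6.78 in all genes of 100 to 300 kb. The laminin beta chain genes, with a median length of 64.4 kb, held 18.7 per megabase with 4 DMRs. The rate was 7.36 in all genes of 30 to 100 kb. Col23a1 (chr11:51289920-51583918, plus strand, 294 kb) held 7, all higher in MMS. Of 1831 genes of 100 to 300 kb, 6 (0.328%) had 7 or more, and of the 15 genes with exactly 7, 3 (20.0%) had all of them higher in MMS. In Col23a1 the Control means of the 7 regions, in the order of the gene, were -0.17, 0.55, 2.52, -0.17, 2.31, 4.22 and -0.17, and the MMS means were 3.28, 3.54, 4.71, 3.88, 5.19, 5.92 and 3.21. The Control mean was thus at its lowest value in 3 regions and between 0.55 and 4.22 in the other 4, and the region with most reads in Control had the most in MMS as well. Intron 2 held 4 of the regions, 69.7 to 175 kb from the gene start, and the region over exons 9 and 10 (chr11:51557544-51558750) differed least, by 1.70 (3.25-fold).

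Col25a1 (chr3:130131501-130599877, plus strand, 468 kb) encodes the collagen of amyloid plaques, known as CLAC-P, which in development takes part in motor innervation of muscle. It held 6 DMRs, against a share of 10.9% of genes above 300 kb with 6 or more. The region nearest the start, in intron 2, was higher in Control (5.31 in Control, 4.11 in MMS). The 5 further along were higher in MMS, with Control means of 1.39, 1.61, 1.03, -0.17 and -0.17 and MMS means of 4.48, 5.19, 3.79, 3.53 and 3.27. Of these the region in intron 4 (chr3:130406831-130407484) had the largest difference among Col25a1 DMRs with the Control mean above its lowest value, 3.58 (12.0-fold). The last region, in intron 32 (chr3:130579648-130579928), is the island-like stretch printed above, with 13 CpG in 281 bp and no annotated repeat. It was the only island-like DMR of the 68 (0.496% of DMRs in all genes).

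Col13a1 (chr10:61838236-61979108, minus strand), which encodes a transmembrane collagen of cell adhesions and the neuromuscular junction, held 4 DMRs. They separated by position. Those in intron 1 and over exon 9, nearer the start, had Control means at -0.17 and MMS means of 3.76 and 4.08, and those in introns 27 and 32 were higher in Control. The intron 27 region (chr10:61865088-61865404) had 4.07 in Control and 1.13 in MMS, the largest difference in that direction of all 68 (-2.94, 7.67-fold). It is the Col13a1 sequence printed above. The intron 32 region was 4.94 kb away and had high reads in both groups (6.49 and 5.49). Col17a1, the hemidesmosome collagen and the only other member of the class, had no DMR.

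**Figure D4:**
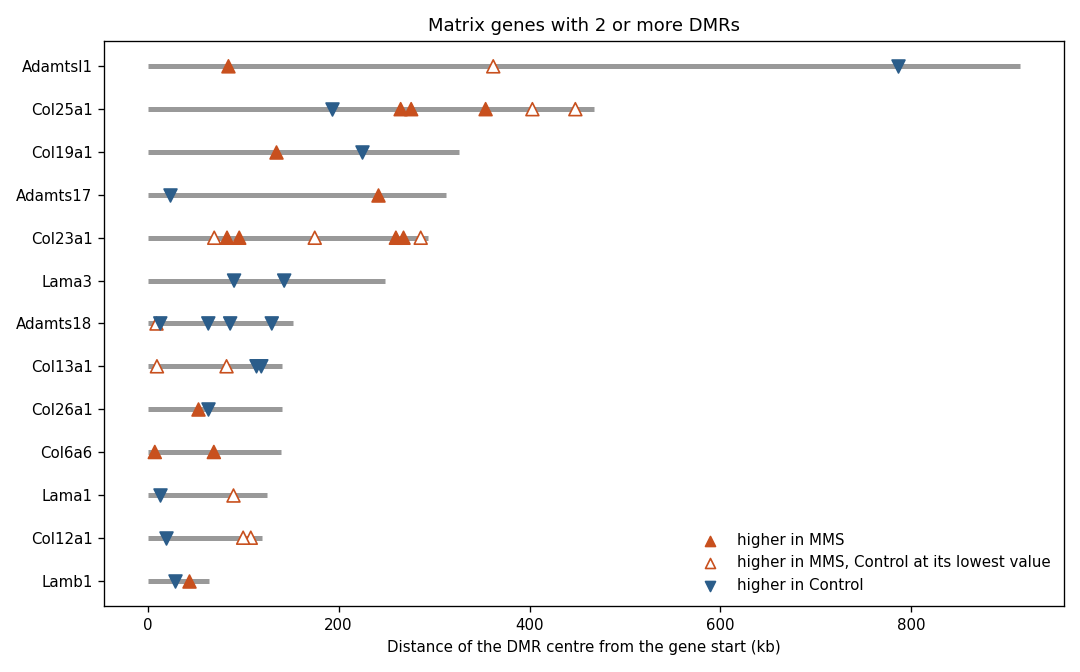
Positions of the DMRs along 13 of the 14 matrix genes with 2 or more DMRs, as distance from the gene start (kb, horizontal axis); the bars are the genes, upward triangles are DMRs higher in MMS (open where Control is at its lowest value) and downward triangles those higher in Control. Col23a1 holds 7 upward triangles and Adamts18 4 downward and 1 upward, and most other genes hold both kinds.

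Fibrillar collagens form the banded fibrils that give tissue its tensile strength. Of 11 genes, 7 held 1 DMR each, and 6 of the 7 were higher in MMS. The exception was Col1a1, the alpha 1 chain of collagen I (chr11:94936224-94953042, plus strand). Its DMR (chr11:94942951-94943702) lay over exons 22 to 24 of 51, in the part that encodes the triple helix, and had 5.39 in Control and 2.65 in MMS (-2.74, 6.68-fold). Col1a2, the partner chain in the same trimer, showed the opposite direction in its own DMR. That region, over exons 37 and 38 of 52 (chr6:4531309-4532427), had 2.68 in Control and 5.13 in MMS, a difference of 2.45 (5.46-fold). Col5a3, a chain of the fibril-regulating collagen V, had a DMR over exon 62 of 67 (chr9:20772616-20773461) with 1.46 in Control and 4.29 in MMS. The other 4 lay in introns. Col5a1, the main collagen V chain, had 2.54 in Control and 4.57 in MMS, and Col27a1, a cartilage collagen, had 1.71 and 4.50. Col11a1, also of cartilage fibrils, and Col24a1 had Control means of -0.17 and MMS means of 3.96 and 3.26.

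Network collagens were represented by 3 of 7 genes. Col4a3 and Col4a4 encode chains of the mature basement membrane network and lie next to each other on chromosome 1 in opposite orientation. The Col4a3 DMR, in intron 34, was higher in Control (4.50 and 2.32), and the Col4a4 DMR, in intron 4, was higher in MMS with the Control mean at its lowest value (-0.17 and 4.25). Col8a2, a chain of the network under corneal and vascular endothelium, had 3.54 in Control and 4.93 in MMS in intron 1, 2.35 kb from the gene start, the smallest difference of the DMRs higher in MMS (1.39, 2.62-fold). Col4a1 and Col4a2, which encode the main chains of vascular basement membrane, had no DMR.

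FACIT collagens attach to the surface of fibrils. Of 9 genes, 2 held DMRs. Col12a1 (chr9:79598991-79718831, minus strand) had 3. The region over exon 10 was higher in Control (5.11 and 3.31). Those in introns 52 and 58, 6.90 kb apart near the far end, had Control means of -0.17 and MMS means of 3.10 and 4.23. The intron 52 region, 156 bp, was the narrowest DMR, was repeat throughout and held no CpG. Col19a1, a collagen of hippocampal and other synapses, had the TG-rich region over exon 13 (chr1:24453314-24453887) at 2.61 in Control and 4.88 in MMS, and a region in intron 16 at 5.13 and 3.78. The first of these held 28 CpG in 574 bp, the densest of the 68 at 4.88 per 100 bp. Col22a1 (238 kb) was the longest collagen gene with no DMR.

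Collagen VI forms beaded microfibrils next to cells. Col6a3 (chr1:90765923-90843971, minus strand), its long alpha 3 chain, had a region in intron 2 (chr1:90818288-90819566) with 1.11 in Control and 5.50 in MMS. The difference of 4.39 (21.0-fold) was the largest of the 68 with both means above their lowest value. Col6a5 and Col6a6 are chains that can take the place of alpha 3 and lie close together on chromosome 9. Col6a6 had regions in introns 1 and 13, both higher in MMS (0.75 and 4.02, then 2.52 and 4.63). Col6a5 had a region over exon 7 that was higher in Control (5.24 and 3.66). No DMR touched Col6a1, Col6a2 or Col7a1, the anchoring fibril collagen, although a DMR lay 2.30 kb downstream of Col6a2 (2.24 in Control, 4.43 in MMS).

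Of the remaining collagens, the multiplexin Col15a1, a basement membrane collagen with an endostatin-like end, had 3.24 in Control and 5.41 in MMS in intron 21. Col26a1 had neighbouring regions 9.11 kb apart in intron 3 with opposite directions (2.63 and 4.42 in the first, 5.94 and 4.05 in the next). Col28a1 had 1.67 and 4.55.

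Laminin genes held DMRs in 7 of 11, and all 3 beta chain genes were among them. The median length was 114 kb for the laminin genes and 64.4 kb for the beta chain genes, and of all genes 59.7% held a DMR at 100 to 300 kb and 30.7% at 30 to 100 kb. With an FDR under 0.01, or with a difference of at least 2, the share of laminin genes was 36.4% in place of 63.6% (12.1% and 15.2% of all genes). Lamb2 (chr9:108479736-108490530, 10.8 kb), which encodes the beta 2 chain of synaptic and vascular basement membranes, was the shortest member with a DMR. Its region over exons 6 and 7 (chr9:108481316-108481659) had a Control mean of -0.17 and an MMS mean of 3.90. It was the DMR nearest to a gene start, at 1.75 kb. Lamb1, the beta 1 chain of most embryonic laminins, had a region in intron 13 higher in Control (5.36 and 2.86) and, 14.2 kb on, a region in intron 24 higher in MMS (2.00 and 4.19). The first of these, at -2.50 (5.66-fold), was the largest laminin difference in that direction. Of genes of 30 to 100 kb, the length class of Lamb1, 8.01% had 2 or more DMRs. Lamb3, a chain of epithelial laminin-332, had 1.71 and 4.80 in intron 1. This region also overlaps the gene 4930570N18Rik, annotated as antisense.

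Among alpha chains, Lama1, the chain of the early and pial basement membrane, had a region in intron 1 with high reads in both groups (6.45 in Control, 5.52 in MMS). The difference of -0.93 (1.91-fold) was the smallest of the 68. A region over exon 36 of Lama1 (chr17:67785902-67786837) had -0.17 in Control and 4.19 in MMS. Lama3, the alpha chain of laminin-332, had 2 regions, both higher in Control, in intron 11 (4.94 and 3.58) and over exon 28 (4.74 and 2.77), and the latter held no CpG. Lama2, the chain of muscle and vascular laminin and with 640 kb the longest laminin gene, had no DMR. Of genes above 300 kb 82.3% had at least 1. Of the gamma chains, Lamc1, part of most laminin trimers, was higher in Control in intron 1 (6.15 and 5.16).

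ADAMTS and ADAMTS-like genes held DMRs in 10 of 24 (41.7%; 20.8% with an FDR under 0.01 and 25.0% with a difference of at least 2), at a median length of 95.2 kb, near the bound between classes in which 30.7% and 59.7% of all genes did. All 3 procollagen N-propeptidases, which remove the N-terminal propeptide of fibrillar procollagens, had 1. Their median length was 205 kb, at which 59.7% of all genes (100 to 300 kb) held a DMR. Adamts2 (5.62 and 4.35) and Adamts3 (5.86 and 4.28) were higher in Control, in introns 3 and 5. Adamts14 was higher in MMS (2.82 and 5.00), in a region over exons 9 and 10 of 22 (chr10:61222893-61224953) that was the widest of the 68, at 2061 bp with 37 CpG. Of 7 proteoglycanases, only Adamts9 had a DMR. It lay in intron 28 (chr6:92834834-92835275), with a Control mean of -0.17 and an MMS mean of 4.55. This difference of 4.72 was the largest of the 68, and the region also overlaps another protein-coding gene, A730049H05Rik. Adamts1, Adamts4, Adamts5 and Adamts15, which also cut lecticans, had none.

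Adamts18 (chr8:113697126-113848738, minus strand, 152 kb), a protease gene linked to inherited eye disease, held 5 DMRs, and 1.8% of genes of 100 to 300 kb had as many or more. In the order of the gene, the Control means were -0.17, 4.87, 5.24, 4.68 and 5.40, and the MMS means were 3.74, 3.35, 3.74, 2.64 and 4.18. The region nearest the start was thus higher in MMS and the other 4 were higher in Control, by 1.22 to 2.04. The opposite directions lay 3.86 kb apart in intron 3. Adamts17, linked to short stature and lens disease, had an intron 3 region higher in Control (5.26 and 3.53) and, 217 kb on, the TG-rich intron 19 region higher in MMS (1.72 and 4.02). Adamts10, which acts on fibrillin microfibrils, was higher in Control over exons 6 and 7 of 25 (chr17:33537128-33537898; 5.98 and 4.55). Adamts13, the protease of von Willebrand factor, was higher in Control over exon 13 of 29 (chr2:26986649-26986878; 5.24 and 3.79). Adamts16 had -0.17 and 3.65 in intron 3. Adamts12 (284 kb) was the longest gene of the family with no DMR.

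Adamtsl1, at 914 kb the longest of the 77 genes, held the only DMRs of the 5 ADAMTS-like genes. The median length of these 5 was 29.6 kb, and of all genes 13.7% held a DMR at 10 to 30 kb and 82.3% above 300 kb. It held 3, spread over 702 kb. Upstream of the main transcript but within the gene lay regions with 1.31 and 3.85, which also overlaps Sh3gl2, and with -0.17 and 3.43. In intron 14 a region had 5.56 in Control and 3.40 in MMS.

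**Figure D5:**
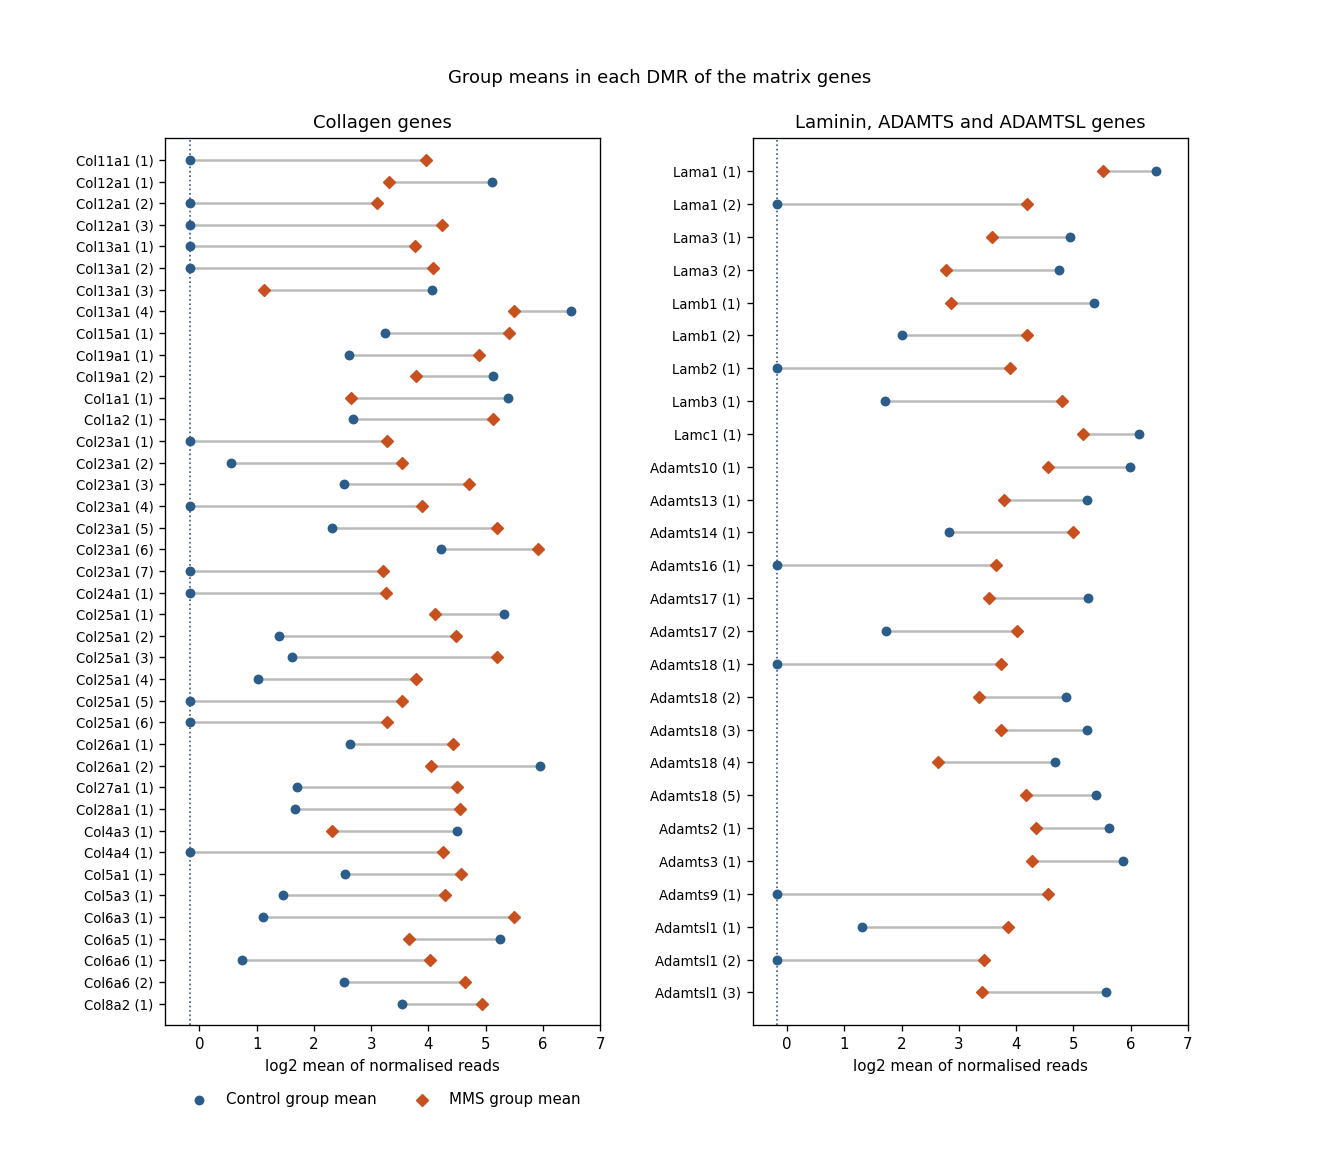
Control (circles) and MMS (diamonds) group means of 66 of the 68 DMRs, in log2 normalised reads (horizontal axis), joined by a line; the number after each gene gives the order of its DMRs from the gene start and the dotted line is the lowest Control value. Collagen genes are on the left, where 31 of 40 diamonds lie to the right of their circle, and laminin, ADAMTS and ADAMTS-like genes on the right, where 11 of 26 do.

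DMRs of opposite direction often lay in the same gene. Of the 38 genes, 24 had 1 DMR and 14 had 2 or more. That was 36.8% of the matrix genes with a DMR, against 31.7% of all genes with a DMR, and 18.2% of the 77 genes, against 6.38% of all genes, which are shorter. Of these 14, 11 held both directions, against 57.3% of all genes with 2 or more DMRs. Among genes with exactly 2 it was 6 of 8 against 44.2%, and among genes with 3 or more 5 of 6 against 77.3%. The exceptions were Col23a1 and Col6a6, with MMS higher throughout, and Lama3, with Control higher throughout. Among neighbours of opposite direction the nearest lay 3.86 kb apart, in Adamts18, and the farthest 423 kb apart, in Adamtsl1. Counting genes by direction, 18 of 38 (47.4%) had only DMRs higher in MMS, against 52.3% of all genes with a DMR, and 9 (23.7%) only DMRs higher in Control, against 29.6%.

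All 68 regions overlapped a gene body. No DMR touched the 1000 bp upstream of a gene (2.25% of DMRs in all genes did), and the nearest outside it lay 3.12 kb upstream of Col1a2 (-0.17 in Control, 3.83 in MMS) and 4.80 kb upstream of Col16a1 (5.76 and 6.60). With the main transcript of each gene, 52 DMRs lay in introns. In all 14 of 68 (20.6%) overlapped an exon of a coding transcript, against 21.2% of DMRs in all genes, and these 14 were named above. Of the 14, 8 were higher in MMS and 6 in Control. Cut into 4 equal stretches from start to end, the genes held 15, 20, 16 and 17 DMRs (22.1%, 29.4%, 23.5% and 25.0%). Over all pairs of gene and DMR the shares were 26.4%, 24.2%, 23.9% and 25.5%.

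Across the 68 DMRs the median was 1.31 CpG per 100 bp, against 1.43 for DMRs in all genes, and the median width was 685 bp against 562 bp. In 47 of 68 (69.1%) the region was denser in CpG than its own gene, against 64.9% of pairs of gene and DMR over all genes. By direction, the medians were 1.24 CpG per 100 bp where MMS was higher and 1.77 where Control was higher, and over all genes 1.38 and 1.52. The median share covered by annotated repeats was 24.2% where MMS was higher and 9.66% where Control was higher, whereas over all genes it was 16.1% and 16.8%. CpG number and repeat content move with the direction here, and their part in it was not tested. The run TGTGTGTGTG, searched on both strands, was present in 19 of 68 regions (27.9%), against 15.5% of DMRs in all genes. It was about as common in regions higher in MMS (27.9%) as in those higher in Control (28.0%), and among its holders were regions of Col13a1, Col25a1, Adamts17 and Adamts18. Its presence is a description of the sequence only.

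Other genes of the same pathway, chosen as 43 receptors, ligands and enzymes, held DMRs in 16 (37.2%), at a median length of 47.5 kb. Of all genes of 30 to 100 kb, 30.7% had a DMR. The higher mean was in MMS in 12 of their 24 DMRs, against 62.0% of DMRs in all genes. Of 9 integrin genes, 4 held 8 DMRs. Itga11, the receptor for fibrillar collagen on mesenchymal cells, had 4, of which 2 were higher in MMS (-0.17 and 4.21, -0.17 and 4.12) and 2 in Control (4.94 and 1.96, 5.61 and 4.56). Itga6, a laminin receptor chain, had 2, both higher in MMS with a Control mean near its lowest value (0.20 and 5.10, -0.17 and 4.78). Dag1, which encodes the laminin receptor dystroglycan, had 1.22 and 4.37, and the collagen receptor Ddr2 had 0.50 and 3.51. Acan, the gene of aggrecan, had a region at 6.13 and 4.68 and another at -0.17 and 3.75. Fibronectin (Fn1, 6.06 and 2.69) and fibrillin-1 (Fbn1, 5.01 and 3.03, 5.24 and 3.66) had only regions higher in Control. Of 18 genes for collagen-modifying enzymes, 6 (33.3%) held a DMR. Their median length was 29.3 kb, and of all genes 13.7% held a DMR at 10 to 30 kb and 30.7% at 30 to 100 kb. The DMRs of these enzymes split into 4 with the higher mean in MMS and 4 with the higher mean in Control.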

How the data were processed

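Methylated DNA immunoprecipitation (meDIP) was sequenced in 3 Control and 3 MMS pools of hypothalamic DNA, with 2 inputs and 1 IgG control that were not analysed here by themselves. Every sample, inputs and IgG included, carries the same antibody label, and these were told apart by their titles. Ion Proton reads were aligned by the authors with Torrent Suite (mm10), MACS2 was run in broad mode with the human genome size setting, and the authors compared the groups with DiffBind and DESeq2. The labels name MACS2 2.1 and HOMER 4.8. The deposited values used are log2 means of normalised reads for the untreated group (read as Control) and the treated group (read as MMS). The deposited FDR was used for the limit of the list (0.05) and for a stricter limit (0.01), and the deposited fold and p-value columns, the authors' own comparison, were not used. The study states the reads per library only as a range over samples, and the table gives no reads per library behind its values, so no counting interval was computed.

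Genes, exons and transcripts came from GENCODE vM21 and sequence, CpG, GC and soft-masked repeats from the RefSeq copy of GRCm38, the build of the files. All DMR positions lay within its chromosomes. A DMR counted for a gene with any overlap of the gene body or the 1000 bp upstream, and features were read from the main transcript (principal, then longest, coding transcript). Exonic overlap was counted over all coding transcripts. A group was at its lowest value when equal to the minimum of its column, and near it within 0.5. Island-like meant at least 200 bp, GC above 50% and observed over expected CpG above 0.6. Reads are 2 to the power of the log2 mean, and folds were taken from these only where the lower group was above its lowest value. The background was all autosomal protein-coding genes or their DMRs, not the regions the authors tested. The overlap step was tested on simulated regions. Python 3.11.15, numpy 2.4.6, pandas 2.3.3 and matplotlib 3.10.9 were used.

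The members, classes, pathway list and alternatives were chosen with earlier results of these data known. The genes named are those with 2 or more DMRs, the member of each class with the most DMRs, the 3 largest differences in each direction (also among DMRs with the lower group above its lowest value), all exonic or upstream DMRs and the longest gene without a DMR in each family. Further members were also named, and the values of 1 gene, which stays in the counts, are not reported here. Alternatives were other overlap rules and windows, a stricter FDR, a minimum difference of 2, DMRs near the lowest value or in another gene left out, and the gene with the most DMRs left out. Shares of direction by family were recomputed under the same alternatives, a step chosen after seeing the data.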

Additional observations from a re-analysis of the deposited data

How the results depend on the processing

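The 12 summary values were recomputed under 9 alternatives, which gave 102 values, since the shares of genes with a DMR by family were not run with DMRs of another gene or the gene with the most DMRs left out. The majority direction of laminin DMRs turned from Control to MMS under an FDR under 0.01 and under a minimum difference of 2, and that of ADAMTS and ADAMTS-like DMRs under the latter. With an FDR under 0.01, 25 genes and 32 DMRs were left (12.1% of all genes had a DMR), the median differences were 3.75 and -1.96, the share of genes with a DMR was 36.4% for laminin and 20.8% for ADAMTS and ADAMTS-like genes, and that of laminin DMRs higher in MMS 75.0% (3 of 4). With a minimum difference of 2, 36.4% of laminin and 25.0% of ADAMTS and ADAMTS-like genes had a DMR (15.2% of all genes). There 45 DMRs were left, 86.7% of them higher in MMS (81.0% in all genes), with shares of 90.3% for collagen, 80.0% for laminin and 77.8% for ADAMTS and ADAMTS-like DMRs and a median of -2.34 in DMRs higher in Control. The order of the families, with collagen highest, was the same there, but the distance between them was smaller. Most of the 45 were collagen DMRs, so the laminin and ADAMTS shares there rest on few regions. With DMRs near the lowest value left out, 50.0% were higher in MMS (45.8% in all genes), the median difference of these was 2.45, and 23.1% of ADAMTS and ADAMTS-like DMRs were higher in MMS. The other alternatives moved none of the 12 values by more than 1.5 times, including the one without Col23a1, where 72.7% of collagen DMRs were higher in MMS. No paired analysis was possible because the table holds only group means, and leaving out each pool in turn could not be run for the same reason. The 3 pools per group and the missing values per pool limit all differences.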
